A study of Mus musculus with 21 samples.

Results

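The last step of control maturation in mouse cumulus-oocyte complexes (COCs), from 8 h to 12 h of culture, was described from 6 of the 21 RNA-seq libraries of the series. A COC is an oocyte with the cumulus cells, specialised granulosa cells, around it. The libraries were chosen by their labels alone: 3 of COCs cultured for 8 h and 3 of COCs cultured for 12 h, each in the control arm (CTL). COCs came from ovaries of wild-type mice. They were cultured at 37 °C in α-MEM with fetal bovine serum, HEPES, pyruvate and epidermal growth factor (EGF), which both arms received. CTL medium also held DMSO, the vehicle of the other arm, in which 10 µM of a proprotein convertase inhibitor (PCI) was present. Further groups of 3 were uncultured COCs (START, 0 h), CTL at 4 h and PCI at 4, 8 and 12 h. The study asks how proprotein convertases, enzymes that cut precursor proteins to their mature forms, bear on the cumulus matrix and on the oocyte factor GDF-9. The labels call the replicates biological but do not say whether they came from separate animals or cultures, so p-values cover only the spread between these libraries. Libraries were made from polyadenylated RNA of whole COCs, so RNA of oocyte and cumulus cells was read together.

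During maturation, EGF-like signals make cumulus cells secrete hyaluronan, a long sugar polymer, which proteins such as pentraxin 3 and TNFAIP6 bind into an elastic matrix. This is cumulus expansion. In the same hours the oocyte resumes meiosis, and uses and clears the maternal mRNAs it stored while growing. Around ovulation granulosa-derived cells then begin to take on features of luteal cells, which make and convert progesterone.

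The 6 libraries held 23739039 to 37491828 counts, within the range of the series (19458618 to 37491828). All values below are TMM-scaled CPM, counts relative to library size, and are listed for replicates 1, 2 and 3 in that order. CPM is not corrected for gene length, so levels are compared between libraries and not between genes. Both cell types of the label were present. The summed level of 12 cumulus and granulosa markers, such as Foxl2, Inha and Fst, was 3612 to 5637 CPM at 8 h and 3309 to 4131 CPM at 12 h. The summed level of 14 oocyte markers, such as Gdf9, Bmp15 and Zp3, was 5667, 4864 and 8161 CPM at 8 h and 3435, 2284 and 2774 CPM at 12 h, so the groups did not overlap. CTL 8 h replicate 2 stood apart from the other 8 h libraries. On the first principal component of all 21 libraries, which took 57.1% of the variance, CTL 8 h libraries lay at 4.75, 28.5 and 2.69 and CTL 12 h libraries at 53.4, 59.2 and 57.0. Replicate 2 was the 8 h library nearest to the 12 h mean in 649 of 843 genes called higher at 12 h and in 500 of 758 genes called lower. For that reason the leading counts are also given without it.

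Of 18192 tested genes, 843 (4.63%) were higher and 758 (4.17%) were lower at 12 h than at 8 h by edgeR's quasi-likelihood test with Benjamini-Hochberg adjustment over all tested genes (adjusted p under 0.05). Falls were larger than rises. The median log2 fold change was 1.01 among genes called higher and -1.99 among genes called lower, against -0.02 over all tested genes. The log2 fold change was at least 1 in 432 of the 843 and at most -1 in 583 of the 758, of which 550 had a count at 12 h. The 12 h libraries all lay above the 8 h libraries in 840 of the 843, and all below in 738 of the 758. Libraries were separated in this way in 18.9% of all tested genes in the upward direction and 17.0% in the downward direction. Without CTL 8 h replicate 2, 781 genes were called higher and 774 lower, of which 682 and 658 were shared with the calls on all libraries. The counts rested more on the other libraries: they were 311 and 295 without CTL 8 h replicate 1, 308 and 322 without CTL 8 h replicate 3, 517 and 371 without CTL 12 h replicate 1, 447 and 301 without CTL 12 h replicate 2, and 350 and 311 without CTL 12 h replicate 3.

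**Figure D1:**
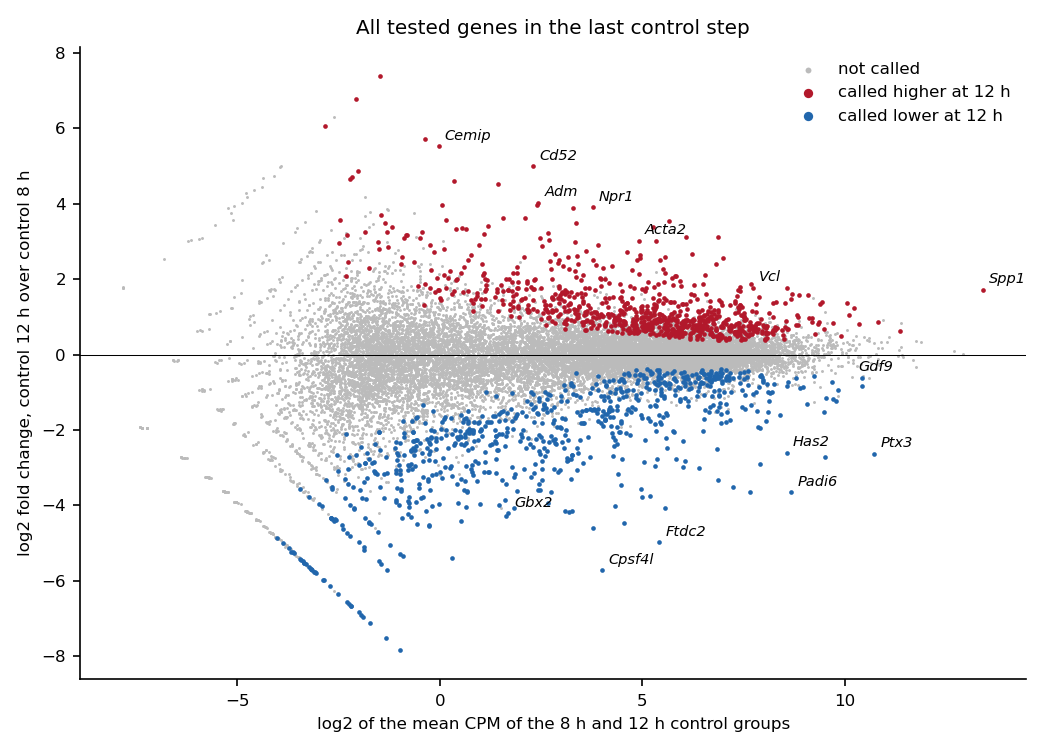
Log2 fold change between the 3 CTL 12 h and 3 CTL 8 h libraries (vertical axis) against the log2 of the mean CPM of both groups (horizontal axis), 1 point a gene. The 843 genes called higher have a median of 1.01 and the 758 called lower a median of -1.99; 17 tested genes without a count in either group are not drawn.

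Genes that moved in this step had followed different courses before it. Of the 843 called higher, 681 (80.8%) had their highest control mean at 12 h, a share that the choice of genes for a higher level at 12 h favours. Among all 8729 tested genes with a log2 fold change above 0 it was 58.9%. Of the 843, 174 rose in mean at every step from START. Their lowest control mean lay at 4 h in 429, at START in 246 and at 8 h in 168. Of the 758 called lower, 614 (81.0%) had their lowest control mean at 12 h, against 62.9% of the 9446 tested genes with a log2 fold change below 0. Of the 758, 374 fell in mean at every step. Their highest mean lay at START in 409, at 4 h in 264 and at 8 h in 85.

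The largest rises included a pair of receptor guanylyl cyclases, enzymes that make cyclic GMP. Npr1 (ENSMUSG00000027931, mm39 chr3:90357898-90373173, minus strand) encodes the receptor of atrial natriuretic peptide, and Gucy2g (ENSMUSG00000055523, mm39 chr19:55186531-55229668, minus strand) a related receptor cyclase. Their promoters, from 250 bases before to 50 bases after the RefSeq start, are shown because both genes rose from a low level in this step. The sequences are from RefSeq on build GRCm38.p6, at chr3:90465817-90466116 for Npr1 and chr19:55241203-55241502 for Gucy2g (the first of 2 listed starts), both on the minus strand. Capitals mark a match to AAGGTCA, the core recognised by the nuclear receptors SF-1 and LRH-1.
Npr1: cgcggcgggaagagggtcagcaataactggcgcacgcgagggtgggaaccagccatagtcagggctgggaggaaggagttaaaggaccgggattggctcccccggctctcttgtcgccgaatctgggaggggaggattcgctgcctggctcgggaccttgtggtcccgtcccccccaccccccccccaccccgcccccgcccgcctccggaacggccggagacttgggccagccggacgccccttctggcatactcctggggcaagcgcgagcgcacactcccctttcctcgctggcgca
Gucy2g: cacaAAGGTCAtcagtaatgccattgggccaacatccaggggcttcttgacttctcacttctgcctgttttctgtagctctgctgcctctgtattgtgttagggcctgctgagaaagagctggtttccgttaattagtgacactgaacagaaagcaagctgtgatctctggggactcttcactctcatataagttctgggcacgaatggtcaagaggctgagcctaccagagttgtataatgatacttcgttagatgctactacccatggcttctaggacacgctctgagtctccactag
Npr1 had 1.47, 2.31 and 1.35 CPM at 8 h and 19.4, 31.5 and 26.4 CPM at 12 h, a log2 fold change of 3.91 ± 0.38, adjusted p = 6.21e-05. Gucy2g had 0.159, 1.53 and 0.182 CPM at 8 h and 6.75, 12.1 and 10.7 CPM at 12 h, a log2 fold change of 3.96 ± 0.67, adjusted p = 0.00159. All 12 h libraries were above all 8 h libraries for both genes, which was a condition for naming the largest changes. The 8 h level of Gucy2g was highest in replicate 2. The AAGGTCA match in Gucy2g begins 246 bases before the start; on either strand this motif occurs in 4.72% of 32851 RefSeq promoter windows of the same length. Npr1 held none of the 5 motifs searched, which were also TGANTCA (AP-1, in 7.81% of windows), TGACGTCA (CRE, 1.79%), CACGTG (E-box, 7.15%) and an NF-kB motif (20.7%). No match says only that these letters are not in this window. Of the 10 largest rises, 8 had a promoter in the table; Gucy2g and Gask1b held a match.

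Other large rises came from hardly measurable levels at 8 h. Cd52 (ENSMUSG00000000682, mm39 chr4:133809759-133822393, minus strand), a small surface glycoprotein known from leukocytes, had 0.198, 0.32 and 0.365 CPM at 8 h and 11.2, 8.37 and 9.02 CPM at 12 h (log2 fold change 4.99 ± 0.80, adjusted p = 0.00146). Acvrl1 (ENSMUSG00000000530, mm39 chr15:101026403-101043217, plus strand), a type I receptor of BMP ligands, had 0.159, 0.427 and 0.0729 CPM at 8 h and 6.59, 3.97 and 4.95 CPM at 12 h (4.52 ± 0.77, adjusted p = 0.00172). Both were under 0.5 CPM in every 8 h library and at or above 3.97 CPM in every 12 h library. Adm, which encodes the vasodilator peptide adrenomedullin, had 0.714, 0.711 and 0.438 CPM at 8 h and 6.09, 14.8 and 9.59 CPM at 12 h (4.03 ± 0.50, adjusted p = 0.000229). Pik3c2g, a class II phosphoinositide kinase, had 0.833, 1.64 and 1.24 CPM at 8 h and 18.9, 19.09 and 17.4 CPM at 12 h (3.89 ± 0.58, adjusted p = 0.000743). Gask1b, of a family of Golgi-associated kinases, had 0.0397, 1.07 and 0.802 CPM at 8 h and 6.37, 8.85 and 8.8 CPM at 12 h (3.63 ± 0.81, adjusted p = 0.00942). The groups did not overlap for any of the 10, which was a condition of their choice. The last of them, Myl9, Akr1c18 and Cyp11a1, belong to lists described below.

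The largest falls were led by genes with high levels before culture. Cpsf4l (ENSMUSG00000018727, mm39 chr11:113588998-113600843, minus strand), related to a subunit of the machinery that cleaves and polyadenylates mRNA, had a mean of 277 CPM at START. It had 40.9, 4.94 and 49.6 CPM at 8 h and 0.852, 0.666 and 0.219 CPM at 12 h (log2 fold change -5.71 ± 0.94, adjusted p = 0.00141). In CTL 8 h replicate 2 its level was already far below that of the other 8 h libraries. Elobl, an elongin B-like gene, had 80.1, 69.2 and 117 CPM at 8 h and 7.19, 4.96 and 3.72 CPM at 12 h (-4.06 ± 0.55, adjusted p = 0.000413), and its 8 h libraries lay closer together. Ftdc1 and Ftdc2, neighbours on chromosome 16 that encode proteins with a ferritin-like domain, fell together. Ftdc2 (ENSMUSG00000055789, mm39 chr16:58455530-58459102, minus strand) had 70.6, 62.9 and 115 CPM at 8 h and 2.43, 2.29 and 3.28 CPM at 12 h (-4.97 ± 0.59, adjusted p = 0.000178). Ftdc1 (ENSMUSG00000075002, mm39 chr16:58434038-58437341, minus strand) had 34.8, 6.83 and 38.1 CPM at 8 h and 1.58, 0.8 and 0.92 CPM at 12 h (-4.59 ± 0.72, adjusted p = 0.00108). As related copies, their counts are uncertain to the extent that reads fit both. Their RefSeq promoters (GRCm38.p6, minus strand, chr16:58638354-58638653 for Ftdc2 and chr16:58616929-58617228 for Ftdc1) are shown because the genes are adjacent and moved together; neither held a match to the 5 motifs.
Ftdc2: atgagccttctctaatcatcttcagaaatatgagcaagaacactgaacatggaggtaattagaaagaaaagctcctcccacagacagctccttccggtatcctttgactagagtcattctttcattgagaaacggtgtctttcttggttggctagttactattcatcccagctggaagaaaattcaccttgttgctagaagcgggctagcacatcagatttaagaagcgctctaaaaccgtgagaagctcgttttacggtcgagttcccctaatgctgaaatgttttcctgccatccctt
Ftdc1: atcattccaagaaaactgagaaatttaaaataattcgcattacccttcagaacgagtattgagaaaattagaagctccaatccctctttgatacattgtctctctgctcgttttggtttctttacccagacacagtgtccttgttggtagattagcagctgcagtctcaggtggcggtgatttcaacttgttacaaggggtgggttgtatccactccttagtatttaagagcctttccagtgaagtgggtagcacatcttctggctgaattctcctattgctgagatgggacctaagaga
The other 6 of the 10 largest falls were Serpinb12 (-4.28), Gbx2 (-4.20), Ninj2 (-4.18), Dppa5a (-4.15), Pin1rt1 (-4.07) and Pinlyp (-3.99), with log2 fold changes in parentheses. Gbx2 encodes a homeobox factor, Serpinb12 a clade B serpin, and Dppa5a a KH-domain protein known from pluripotent cells. Pin1rt1 is annotated as a retrogene, which makes its counts uncertain. Of the 10 largest falls, 9 had a promoter in the table. Serpinb12 held TGANTCA, Gbx2 and Ninj2 held CACGTG, and Elobl held AAGGTCA and the NF-kB motif.

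Many oocyte genes fell. All 33 tested maternal genes had a log2 fold change below 0, with a median of -1.14 against -0.02 over all tested genes. Of these, 14 were called lower and none higher. Zp2 and Zp3 encode proteins of the zona pellucida, the coat of the oocyte. Zp3 had 213, 117 and 304 CPM at 8 h and 22.4, 13.97 and 27.2 CPM at 12 h (log2 fold change -3.32 ± 0.56, adjusted p = 0.00149), and Zp2 had 313, 231 and 579 CPM at 8 h and 17.6, 9.25 and 63.8 CPM at 12 h (-3.64 ± 0.75, adjusted p = 0.00576). Padi6, a protein of the oocyte's cytoplasmic lattices, had 571, 619 and 1086 CPM at 8 h and 55.9, 43.9 and 82.3 CPM at 12 h (-3.65 ± 0.55, adjusted p = 0.000794). Npm2, a histone chaperone of the egg, had 59.7, 33.3 and 80.6 CPM at 8 h and 5.08, 4.32 and 5.3 CPM at 12 h (-3.56 ± 0.53, adjusted p = 0.000743). Nlrp14, an NLR-family protein of the oocyte, had 1179.6, 872 and 1739 CPM at 8 h and 233, 144 and 198 CPM at 12 h (-2.72 ± 0.49, adjusted p = 0.00233). In each of the 5 genes all 12 h libraries lay below all 8 h libraries, and the 12 h library with the lowest level was replicate 2. The others called lower were Khdc3 (-4.42), Nobox (-3.47), Gtsf1 (-3.04), Zp1 (-3.00), Lhx8 (-2.66), Nlrp2 (-2.27), Ooep (-2.04), Tle6 (-1.95) and Nlrp5 (-1.77).

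The fall was not even across oocyte genes. Gdf9, which encodes the growth factor that the oocyte sends to its cumulus cells, had 1312, 1108 and 1754 CPM at 8 h and 1147, 737 and 877 CPM at 12 h (-0.60 ± 0.44, adjusted p = 0.453). Bmp15, its partner, had 1129.7, 1012 and 1583 CPM at 8 h and 723, 480.1 and 534 CPM at 12 h (-1.10 ± 0.45, adjusted p = 0.147). The groups of Gdf9 overlapped, those of Bmp15 did not, and neither gene passed the test. Oosp1, H1f8, the oocyte linker histone, and Bcl2l10 had log2 fold changes of -0.25, -0.29 and -0.24 and were not called. Of 14 oocyte markers, 8 were called lower, with a median of -1.995. All 8 are also among the maternal genes called lower, so these lists are not separate. In bulk polyadenylated RNA, the parts of fewer oocytes per sample and of less such RNA per oocyte cannot be told apart. Neither was tested. With the oocyte marker score as a covariate, an alternative chosen after the data were seen, 1559 genes were called higher and 1464 lower, of which 247 and 246 were among the calls without it. In that fit the oocyte lists turned: 14 maternal genes were called higher and 3 lower, 8 and 2 of the RNA control genes, 8 and 0 of the meiotic genes, and 4 and 3 of the markers. The score is the mean log2 CPM of those markers. The turn of the markers, and of maternal genes among them, was therefore partly built in. The score lay at 7.31, 6.92 and 7.84 at 8 h and 5.47, 4.93 and 5.52 at 12 h, so it was itself separated by the step. Some calls among the largest rises and falls above were also lost with the oocyte marker score as a covariate. They were those of Gucy2g, Gask1b, Myl9, Akr1c18, Cyp11a1 and Cpsf4l (adjusted p from 0.0581 to 0.72).

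Genes that control RNA in the oocyte were called lower in 7 of 26 and higher in none. Tut4, which adds uridines to RNA tails, had 335, 289 and 272 CPM at 8 h and 151, 146 and 151 CPM at 12 h (-0.999 ± 0.16, adjusted p = 0.00139). Zar1l and Ybx2, both RNA-binding proteins of the oocyte, had log2 fold changes of -3.60 and -2.64. Pabpc1l, the poly(A)-binding protein of early embryos, had -2.07, Patl2 -2.49, Cpeb1 -1.79 and Eif4e1b -1.59. Of 19 genes of meiotic control, 3 were called lower. Ccnb3, a cyclin needed to leave the first meiotic metaphase, had 4.28, 2.95 and 6.42 CPM at 8 h and 0.915, 0.56 and 0.876 CPM at 12 h (-2.54 ± 0.54, adjusted p = 0.00729). Smc1b, a meiotic cohesin subunit, had 2.42, 1.81 and 4.12 CPM at 8 h and 0.536, 0.427 and 0.482 CPM at 12 h (-2.52 ± 0.52, adjusted p = 0.00553). Meikin, a kinetochore protein of the first division, had 0.912, 0.178 and 1.9 CPM at 8 h and 0, 0.0533 and 0 CPM at 12 h, which for 12 h is a single library with counts, and it overlaps a pseudogene on the same strand. Npm2 overlaps Xpo7 on the same strand. The call of Meikin (adjusted p = 0.055) was lost without CTL 8 h replicate 3. The call of Pabpc1l (adjusted p up to 0.078) was lost without any 1 of the libraries other than CTL 8 h replicate 2 and CTL 12 h replicate 1. Zp2, Nlrp14, Zar1l, Ybx2, Ccnb3, Smc1b and Meikin lost their calls with the oocyte marker score as a covariate (adjusted p from 0.0583 to 0.318). Zp2 is itself a marker in that score. Pabpc1l (0.03) turned sign with the oocyte marker score as a covariate.

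Genes that turned on were defined as called higher, with a mean under 0.5 CPM at 8 h and at least 1 CPM in every 12 h library. They numbered 26 (0.143% of tested genes), and 12 of them were also under 0.5 CPM at START and 4 h. The 6 with the highest 12 h level were Cd52, Myl9, Acvrl1, Slc16a9, Mgst2 and Cd28. Slc16a9, of the monocarboxylate transporter family, had 0.0793, 0.676 and 0.401 CPM at 8 h and 4.42, 4.05 and 4.03 CPM at 12 h (log2 fold change 3.41 ± 0.60, adjusted p = 0.00205). Mgst2, a microsomal glutathione transferase, had 0.357, 0.605 and 0.292 CPM at 8 h and 3.28, 4.77 and 3.5 CPM at 12 h (3.19 ± 0.71, adjusted p = 0.00966). Cd28, best known as a costimulatory receptor of T cells, had 0.436, 0.569 and 0.365 CPM at 8 h and 2.93, 4.59 and 2.8 CPM at 12 h (2.90 ± 0.51, adjusted p = 0.00205). For each of them all 12 h libraries lay above all 8 h libraries, which the bounds of the rule favour.

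Several of the 26 encode secreted signals, their receptors or inhibitors. Edn2, an endothelin, had 0.0793, 0.213 and 0 CPM at 8 h and 3.12, 2.37 and 1.93 CPM at 12 h (4.59 ± 0.93, adjusted p = 0.00516). Bmp4, a bone morphogenetic protein, had 0.0397, 0.356 and 0.109 CPM at 8 h and 2.15, 1.57 and 2.5 CPM at 12 h (3.57 ± 0.85, adjusted p = 0.0167). Fas, a death receptor, had 0.198, 0.605 and 0.0365 CPM at 8 h and 4.7, 2.19 and 1.75 CPM at 12 h (3.34 ± 0.68, adjusted p = 0.00541), and its 12 h level was highest in replicate 1. These 3 and those that follow were picked from the list for their known roles after their values were seen. Npy4r, a receptor of the neuropeptide Y family, had 2 counts over the 3 libraries at 8 h and 137 at 12 h, a ratio of 60.1 (95% counting interval 16.3 to 501). Maf, a basic leucine zipper factor, Pltp, a phospholipid transfer protein, and Serping1, the inhibitor of complement C1, had log2 fold changes of 3.35, 2.91 and 1.70. The others were Paqr5, Rasgef1a, Slfn4, Klf12, Itpka, Cemip, Kcnd2, Fxyd6, Dkkl1, Chrna2, Hpcal4, Glipr1 and Gm16332. The 14 that were not under 0.5 CPM earlier include Slfn4, with 41.5 CPM at START, and Fxyd6, with 8.58 CPM. The call of Mgst2 (adjusted p up to 0.0585) was lost without CTL 8 h replicate 1 or CTL 8 h replicate 3. Mgst2 lost its call with the oocyte marker score as a covariate (adjusted p = 0.324).

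Genes that turned off, by the mirrored rule, numbered 41 (0.225% of tested genes). Of these, 34 were at or over 0.5 CPM at START. The 6 with the highest 8 h level were Pin1rt1, Gbx2, Serpinb12, Rhoh, Pinlyp and Morc1. Gbx2 had 6.82, 2.95 and 8.42 CPM at 8 h and 0.505, 0.24 and 0.219 CPM at 12 h, and Pin1rt1 had 9.36, 3.41 and 7.37 CPM at 8 h and 0.757, 0.133 and 0.307 CPM at 12 h. Serpinb12 had 4.92, 4.55 and 8.17 CPM at 8 h and 0.0946, 0.48 and 0.307 CPM at 12 h, and its 8 h libraries lay close together. Rhoh, an atypical small GTPase, had 7.57, 1.17 and 8.35 CPM at 8 h and 0.158, 0.4 and 0.657 CPM at 12 h, with CTL 8 h replicate 2 well below the other 8 h libraries. Morc1, known for silencing transposons in the male germline, had 4.05, 1.88 and 6.67 CPM at 8 h and 0.158, 0.853 and 0.394 CPM at 12 h. Pinlyp, related to an inhibitor of phospholipase A2, had 3.49, 3.38 and 8.61 CPM at 8 h and 0.347, 0.133 and 0.526 CPM at 12 h.

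The rest of the 41 included growth factors and channels, picked here for their known roles after their values were seen. Fgf8, an oocyte-secreted growth factor that acts on cumulus cells, had 5, 1.46 and 5.91 CPM at 8 h and 0.347, 0.72 and 0.307 CPM at 12 h (-3.11 ± 0.62, adjusted p = 0.00478). It had 27.9 CPM at START and 22.99 CPM at 4 h. Nppc, whose peptide holds the oocyte in meiotic arrest through cyclic GMP, had 1.11, 1.1 and 1.02 CPM at 8 h and 0.536, 0.48 and 0.219 CPM at 12 h (-1.35 ± 0.39, adjusted p = 0.0365). Aqp8, a water channel, went from 103 CPM at START to 2.01 CPM at 8 h and 0.462 CPM at 12 h. The 7 genes that were not at 0.5 CPM at START, and so had come on in culture, included Htr4, Tmod1, Adra1a, Ifi205, Rcan2 and Apela. Of these, Htr4, a serotonin receptor, had 4.2, 1.14 and 1.86 CPM at 8 h and 0, 0.107 and 0.0438 CPM at 12 h. The number turned off was 103 without CTL 8 h replicate 2, and 34 and 23 without CTL 8 h replicates 1 and 3. It was 35, 26 and 27 without CTL 12 h replicates 1, 2 and 3. The number turned on was 34 without CTL 8 h replicate 2, 11 and 13 without CTL 8 h replicates 1 and 3, and 21 to 25 without 1 of the 12 h libraries. The call of Nppc (adjusted p up to 0.156) was lost without any 1 of the 6 libraries. Nppc (adjusted p = 0.0813) lost its call without a filter on low counts. Nppc (adjusted p = 0.0634) lost its call when the CTL 8 h and CTL 12 h groups were fitted alone. Rhoh and Morc1 lost their calls with the oocyte marker score as a covariate (adjusted p from 0.248 to 0.375).

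**Figure D2:**
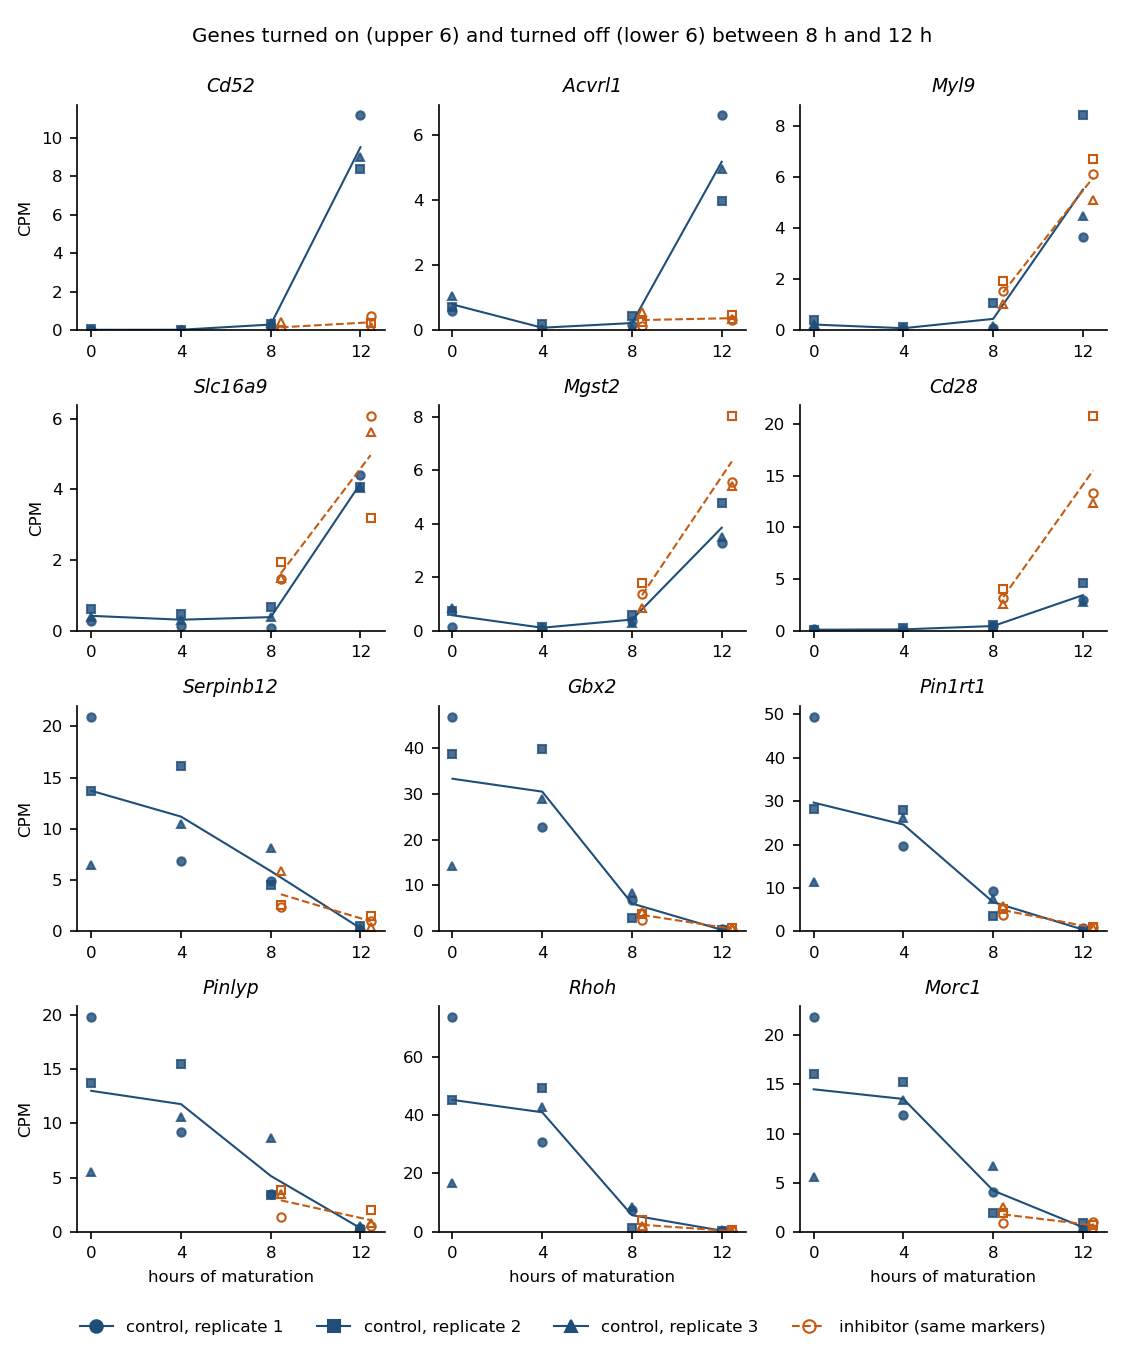
CPM (vertical axis, linear) by hours of maturation (horizontal axis) for the 6 genes turned on with the highest 12 h level and the 6 turned off with the highest 8 h level. Blue filled points are single START and CTL libraries by replicate and the line joins their means; orange open points are PCI libraries at 8 h and 12 h, slightly offset. Cd52 lies between 8.37 and 11.2 CPM in CTL at 12 h and at a mean of 0.412 CPM in PCI.

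The gene lists below hold 1035 tested genes in 54 lists. Their counts of called members can be set beside the 4.63% called higher and 4.17% called lower among all tested genes. A list's members were picked for what is known of them, so its count is a description and carries no test.

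**Figure D3:**
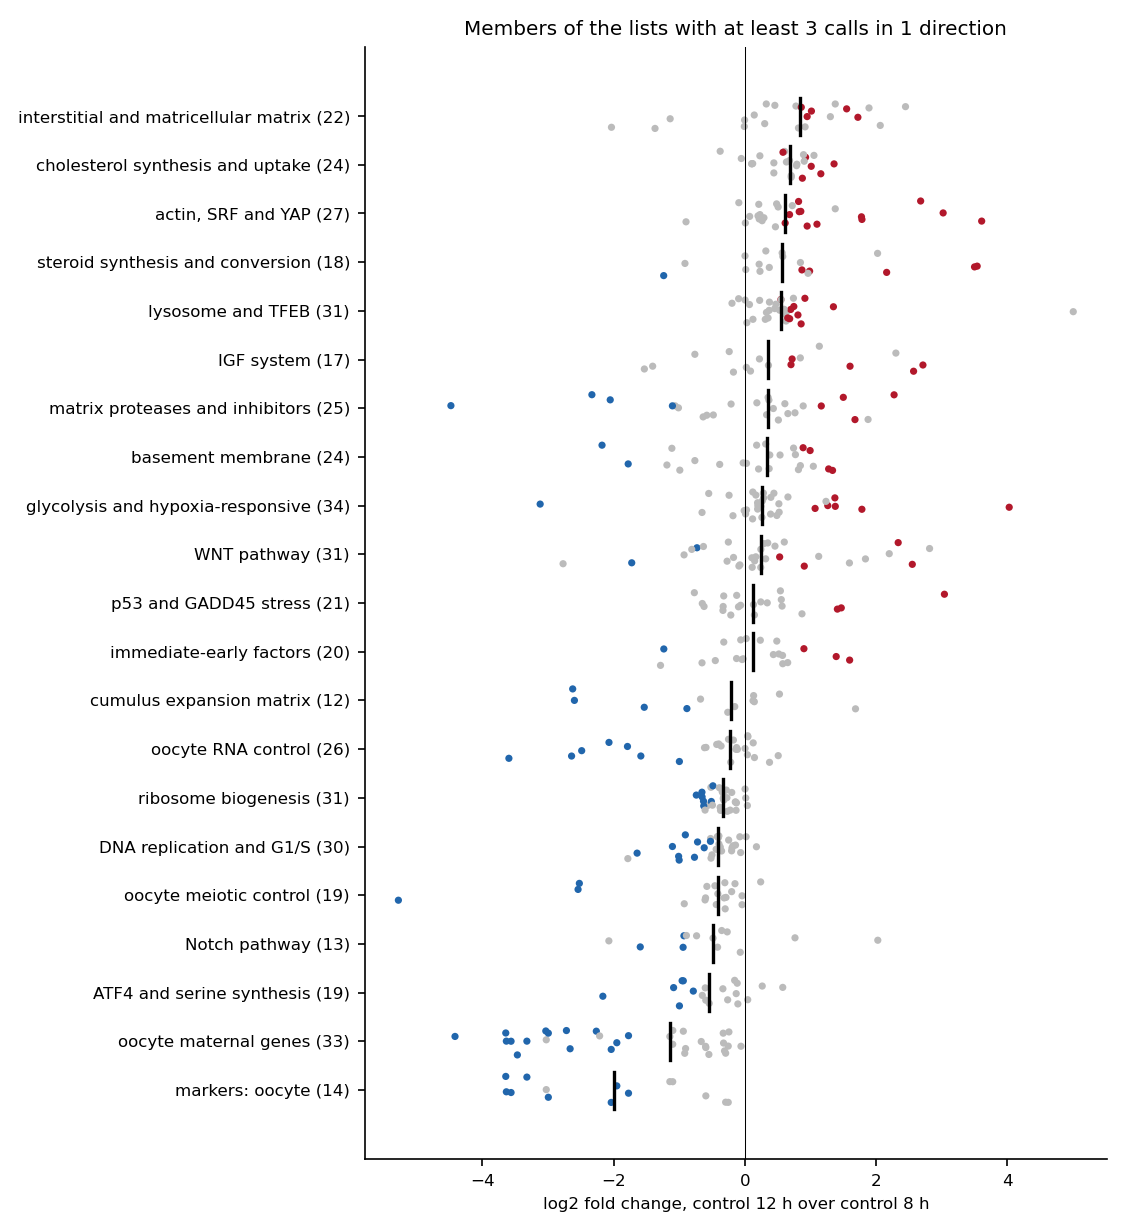
Log2 fold change between CTL 12 h and CTL 8 h (horizontal axis) of each tested member, 1 point a gene, for the lists with at least 3 members called in 1 direction; the number of tested members is in parentheses. Red points were called higher, blue lower and grey neither, and the black bar is the median, which runs from 0.84 for interstitial matrix to -1.995 for oocyte markers. The lists of oocyte maternal genes and oocyte markers share members.

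Some genes that build the hyaluronan matrix fell, and others did not pass the test. In the cumulus expansion list 4 of 12 were called lower and none higher, with a median log2 fold change of -0.21. The values of Vcan (0.53), Hapln1 (1.68), Has1 (0.13) and Itih2 (0.14) were above 0 and not called. Has2 (ENSMUSG00000022367, mm39 chr15:56529023-56557935, minus strand), the synthase that makes hyaluronan, had 804, 494 and 655 CPM at 8 h and 132, 70.5 and 119 CPM at 12 h (log2 fold change -2.60 ± 0.36, adjusted p = 0.000532). Ptx3 (ENSMUSG00000027832, mm39 chr3:66127331-66133226, plus strand), the pentraxin that cross-links it, had 3243, 3013 and 2561 CPM at 8 h and 546, 462 and 420.5 CPM at 12 h (-2.63 ± 0.33, adjusted p = 0.000257). For both, all 12 h libraries lay far below all 8 h libraries. Adamts1, a protease that cuts the proteoglycan versican, had 263, 160.0 and 189 CPM at 8 h and 62.4, 74.7 and 74.1 CPM at 12 h (-1.53 ± 0.27, adjusted p = 0.00207). Tnfaip6, which transfers heavy chains of inter-alpha-inhibitor onto hyaluronan, had 719, 672 and 481 CPM at 8 h and 389, 352 and 274 CPM at 12 h (-0.88 ± 0.24, adjusted p = 0.0296). Most of its decline lay earlier, as its CTL 4 h mean was 4526 CPM. Ptgs2, the prostaglandin synthase of expansion, had 1198, 1004 and 898 CPM at 8 h and 1069.5, 1282 and 1024 CPM at 12 h (0.12 ± 0.26, adjusted p = 0.832), and its groups overlapped. No gene of the prostaglandin list (15 tested) was called, with log2 fold changes from -0.77 to 0.71. The call of Tnfaip6 (adjusted p up to 0.134) was lost without any 1 of the libraries other than CTL 8 h replicate 3.

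A gene that breaks hyaluronan down came on as the synthase fell. Cemip, a protein needed for hyaluronan depolymerisation, had 0.0397, 0.0711 and 0 CPM at 8 h and 1.42, 1.68 and 2.67 CPM at 12 h. These were 3 counts over the 8 h libraries against 169 over the 12 h libraries, a ratio of 49.4 (95% counting interval 16.6 to 242), with an adjusted p of 0.000961. Xylt1, which starts the sugar chains of proteoglycans, fell, with 23.6, 21.3 and 15.2 CPM at 8 h and 7.64, 7.6 and 6.48 CPM at 12 h (-1.47 ± 0.21, adjusted p = 0.000623). No other of the 17 tested genes of hyaluronan and proteoglycan turnover passed the test. These included Cemip2 (-0.03), Hyal1 (-0.03), Hyal2 (-0.12) and Hyal3 (0.85).

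**Figure D4:**
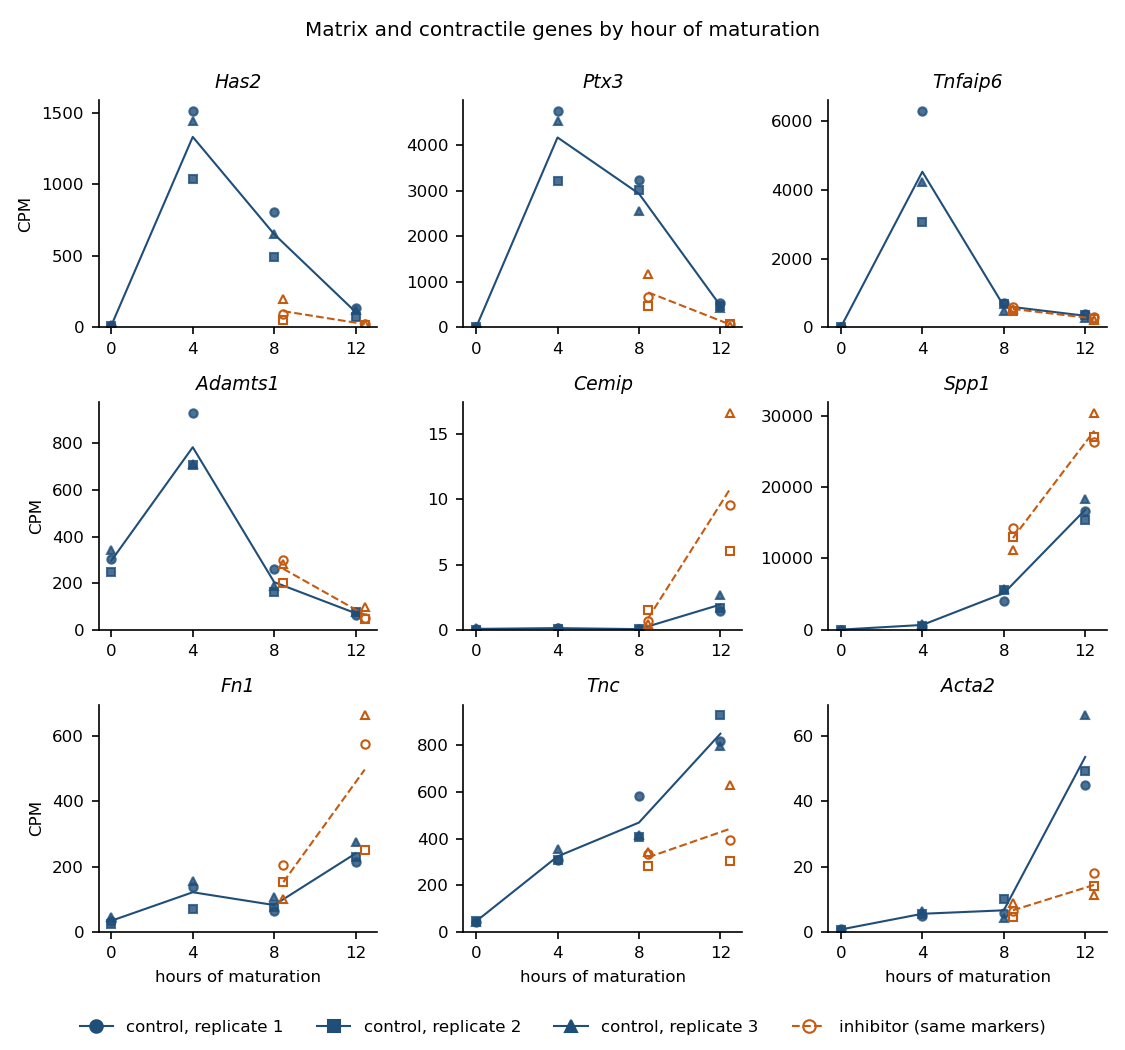
CPM (vertical axes, linear, each from 0) by hours of maturation (horizontal axes) for 9 matrix and contractile genes. Blue filled points are START and CTL libraries by replicate with a line through their means, and orange open points are PCI libraries at 8 h and 12 h; Has2 and Ptx3 fall between 8 h and 12 h in CTL, while Spp1 and Acta2 are higher in every 12 h than in every 8 h CTL library.

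Interstitial and matricellular genes moved the other way. Of 22 tested, 5 were called higher and none lower, and the median log2 fold change was 0.84. Spp1, which encodes osteopontin, had 4033, 5602 and 5660.2 CPM at 8 h and 16686, 15401 and 18343 CPM at 12 h (log2 fold change 1.72 ± 0.39, adjusted p = 0.0108). Fn1, fibronectin, had 62.6, 75.8 and 108 CPM at 8 h and 215, 229.8 and 276 CPM at 12 h (1.55 ± 0.35, adjusted p = 0.0105), and Tnc, tenascin C, had 583, 406 and 417 CPM at 8 h and 820.2, 929.9 and 799 CPM at 12 h (0.86 ± 0.20, adjusted p = 0.0125). Ccn1 (0.95) and Col5a1 (1.01) were the others. The groups did not overlap for Spp1, Fn1 and Tnc. Basement membrane genes were split, with 4 of 24 called higher and 2 lower. Hspg2, perlecan, had 20.8, 22.7 and 17.1 CPM at 8 h and 39.9, 53.9 and 53 CPM at 12 h (1.28 ± 0.27, adjusted p = 0.00751), whereas Lama4, a laminin chain, had 35.1, 11.8 and 14.99 CPM at 8 h and 6.22, 3.6 and 3.81 CPM at 12 h (-2.18 ± 0.47, adjusted p = 0.00757). Sparc (0.99), Col4a2 (0.89) and Col4a5 (1.33) rose and Col4a3 (-1.78) fell. With the replicate number as a block, the call of Col4a5 was lost (adjusted p = 0.0509). Col4a1, a collagen IV chain, had 589.7, 637 and 410.4 CPM at 8 h and 934, 1012 and 994 CPM at 12 h (0.84 ± 0.31, adjusted p = 0.1). It overlaps the start of Col4a2 on the other strand. Of 18 integrins 1 was called: Itga5, the fibronectin receptor chain, had 1629, 1081 and 882 CPM at 8 h and 626, 609.8 and 625 CPM at 12 h (-0.95 ± 0.20, adjusted p = 0.00754).

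Matrix proteases and their inhibitors were called higher in 4 of 25 and lower in 4. F3, tissue factor, which starts coagulation, had 11.4, 18.6 and 16.8 CPM at 8 h and 59.3, 79.5 and 87.6 CPM at 12 h (2.27 ± 0.30, adjusted p = 0.000353). Plau, the urokinase that activates plasminogen, had 2.22, 4.87 and 4.78 CPM at 8 h and 9.75, 11.3 and 12.6 CPM at 12 h (1.499 ± 0.33, adjusted p = 0.00822), while its receptor Plaur had -1.11. Mmp11 had 63.6, 127 and 54.7 CPM at 8 h and 283, 225 and 276 CPM at 12 h (1.68 ± 0.33, adjusted p = 0.00442), and Timp2, an inhibitor of metalloproteases, had 22.2, 32.9 and 17.1 CPM at 8 h and 51.9, 59.9 and 49.8 CPM at 12 h (1.16 ± 0.26, adjusted p = 0.00962). The genes called lower besides Plaur were Mmp10 (-4.48), Serpinb2 (-2.33) and Mmp13 (-2.05). Proprotein convertases, the targets of the inhibitor in the other arm, were called in 1 of 8. Pcsk5 had 322, 384 and 444 CPM at 8 h and 893, 955 and 1172 CPM at 12 h (1.39 ± 0.31, adjusted p = 0.0102). Furin had 478, 406 and 434 CPM at 8 h and 526, 407 and 549 CPM at 12 h (0.17 ± 0.19, adjusted p = 0.66), and Pcsk6 had 57.5, 85.1 and 79.1 CPM at 8 h and 53.6, 55 and 48.9 CPM at 12 h (-0.49 ± 0.23, adjusted p = 0.207). The calls of Spp1 (adjusted p = 0.0642), Fn1 (adjusted p = 0.0679), Lama4 (adjusted p = 0.0626) and Itga5 (adjusted p = 0.0628) were lost without CTL 8 h replicate 1. The call of Timp2 (adjusted p = 0.0596) was lost without CTL 8 h replicate 3. The call of Tnc (adjusted p up to 0.0679) was lost without CTL 8 h replicate 3 or CTL 12 h replicate 2. The call of Pcsk5 (adjusted p up to 0.058) was lost without CTL 8 h replicate 1 or CTL 12 h replicate 3. The call of Ccn1 (adjusted p up to 0.172) was lost without any 1 of the libraries other than CTL 8 h replicate 2 and CTL 12 h replicate 1. The call of Col4a5 (adjusted p up to 0.189) was lost without any 1 of the libraries other than CTL 8 h replicate 2. The call of Sparc (adjusted p up to 0.122) was lost without any 1 of the 6 libraries. Sparc (adjusted p = 0.158) lost its call without a filter on low counts. Spp1, Fn1, Tnc, Col4a5, Itga5, Timp2, Pcsk5, Hspg2, Mmp11 and Plau lost their calls with the oocyte marker score as a covariate (adjusted p from 0.0514 to 0.81). Sparc (-0.16) turned sign with the oocyte marker score as a covariate. The interstitial count was between 1 and 6 when 1 library was left out, lowest without CTL 8 h replicate 1. That of proteases called lower was between 0 and 4, lowest without CTL 12 h replicate 2, and that of basement membrane genes called higher was 1 or 2 in all 6.

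Several genes of the contractile cytoskeleton rose. In the list of actin, SRF and YAP genes, the latter 2 being transcription regulators that respond to actin and to tension, 12 of 27 were called higher and none lower. The median log2 fold change was 0.61. Acta2, smooth muscle actin (ENSMUSG00000035783, mm39 chr19:34218490-34232990, minus strand), had 5.63, 9.99 and 4.16 CPM at 8 h and 45.1, 49.3 and 66.3 CPM at 12 h (log2 fold change 3.02 ± 0.32, adjusted p = 0.000111). Cnn2, a calponin that binds actin and myosin, had 12.9, 33.9 and 14.5 CPM at 8 h and 113, 138 and 141 CPM at 12 h (2.68 ± 0.36, adjusted p = 0.000413). Myl9, the regulatory light chain of smooth muscle myosin, had 0.0793, 1.07 and 0.182 CPM at 8 h and 3.63, 8.4 and 4.47 CPM at 12 h (3.61 ± 0.73, adjusted p = 0.00516). Vcl, vinculin of focal adhesions, had 82.5, 127 and 79.7 CPM at 8 h and 300.4, 351 and 339 CPM at 12 h (1.78 ± 0.24, adjusted p = 0.000413), and Tpm2, a tropomyosin, had 20.1, 15.9 and 17.1 CPM at 8 h and 55.8, 52.5 and 74.5 CPM at 12 h (1.78 ± 0.30, adjusted p = 0.00164). At 8 h, replicate 2 had the highest level of Acta2, Cnn2, Myl9 and Vcl but not of Tpm2. Cald1 (1.10), Flna (0.85), Cnn3 (0.83), Actg1 (0.82), Axl (0.68) and Actb (0.61) were also called; reads of Actb and Actg1 may fit both genes. The number called was 7 to 12 when 1 library was left out, and with the oocyte marker score as a covariate it was 5 higher and 1 lower. Junction and projection genes were called higher in 2 of 17 and lower in 2. F11r, the junctional adhesion molecule A, had 91.1, 164 and 109 CPM at 8 h and 334, 387 and 323 CPM at 12 h (1.52 ± 0.26, adjusted p = 0.0018), and Nectin2 had 11.98, 15.3 and 13.9 CPM at 8 h and 29.4, 29.8 and 40.6 CPM at 12 h (1.28 ± 0.24, adjusted p = 0.00307). Myo10, a myosin of filopodia, had a log2 fold change of -0.73, and Cldn1, a claudin, -1.45. The call of Myo10 (adjusted p up to 0.122) was lost without any 1 of the libraries other than CTL 8 h replicate 3. The call of Cldn1 (adjusted p up to 0.148) was lost without any 1 of the libraries other than CTL 8 h replicate 2. Myl9, F11r, Myo10 and Cldn1 lost their calls with the oocyte marker score as a covariate (adjusted p from 0.0505 to 0.13).

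A minority of steroid and cholesterol genes were called higher, with wide spread between libraries for the steroid genes. Of 18 steroid genes, 5 were called higher and 1 lower (Hsd11b2, -1.24), with a median log2 fold change of 0.57. Cyp11a1, which makes pregnenolone from cholesterol, had 0.516, 3.49 and 0.948 CPM at 8 h and 12.4, 30.1 and 13.97 CPM at 12 h (log2 fold change 3.50 ± 0.79, adjusted p = 0.0105). Akr1c18, which converts progesterone to its inactive 20-alpha form, had 2.06, 17.96 and 3.87 CPM at 8 h and 42.1, 191 and 45.2 CPM at 12 h (3.54 ± 0.80, adjusted p = 0.0105). In both genes replicate 2 was the highest library at 8 h and at 12 h. Akr1c14, a related gene that may share reads, had 2.16. Fdx1, the electron donor of the side-chain cleavage enzyme, had 163, 242 and 198 CPM at 8 h and 373, 468 and 355 CPM at 12 h (0.99 ± 0.23, adjusted p = 0.014), and Nr5a2, the nuclear receptor LRH-1, had 11.5, 14.8 and 10.4 CPM at 8 h and 17.4, 27.8 and 21.8 CPM at 12 h (0.87 ± 0.24, adjusted p = 0.028). Without CTL 8 h replicate 1 or replicate 3, none of the 18 was called higher. Without a filter on low counts 3 were, and with the oocyte marker score as a covariate 1 was higher and 2 lower.

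Cholesterol synthesis and uptake genes were called higher in 6 of 24 and lower in none (median 0.69). Lss, which closes the sterol rings, had 35.9, 43.8 and 36.1 CPM at 8 h and 71.7, 64.2 and 97.5 CPM at 12 h (1.01 ± 0.21, adjusted p = 0.00594). Cyp51 had 123, 153 and 117 CPM at 8 h and 268, 256 and 353 CPM at 12 h (1.16 ± 0.27, adjusted p = 0.0125), and Nsdhl had 43.2, 51.1 and 44.7 CPM at 8 h and 65.4, 59.3 and 83.2 CPM at 12 h (0.58 ± 0.13, adjusted p = 0.0091); both act later in the pathway. Dhcr7 (0.92) and Mvd (0.87) were also called. Abca1, the cholesterol exporter, had 66.4, 118 and 78.8 CPM at 8 h and 228, 252 and 195 CPM at 12 h (1.36 ± 0.37, adjusted p = 0.0277). For Lss, Cyp51 and Nsdhl the highest 12 h library was replicate 3, and without it none of the 24 was called. The call of Lss (adjusted p = 0.0512) was lost without CTL 12 h replicate 3. The call of Cyp11a1 (adjusted p up to 0.063) was lost without CTL 8 h replicate 1 or CTL 8 h replicate 3. The call of Nsdhl (adjusted p up to 0.0851) was lost without CTL 8 h replicate 1 or CTL 12 h replicate 3. The calls of Akr1c18 (adjusted p up to 0.0719) and Fdx1 (adjusted p up to 0.0781) were lost without CTL 8 h replicate 1, CTL 8 h replicate 3 or CTL 12 h replicate 2. The call of Cyp51 (adjusted p up to 0.0702) was lost without CTL 8 h replicate 1, CTL 8 h replicate 3 or CTL 12 h replicate 3. The call of Nr5a2 (adjusted p up to 0.131) was lost without any 1 of the libraries other than CTL 8 h replicate 2 and CTL 12 h replicate 1. The call of Abca1 (adjusted p up to 0.125) was lost without any 1 of the libraries other than CTL 8 h replicate 2. Akr1c18 (adjusted p = 0.0506), Nsdhl (adjusted p = 0.11) and Abca1 (adjusted p = 0.117) lost their calls without a filter on low counts. Akr1c18 (adjusted p = 0.0807) lost its call when the CTL 8 h and CTL 12 h groups were fitted alone. Cyp11a1, Akr1c18, Fdx1, Nr5a2, Lss and Cyp51 lost their calls with the oocyte marker score as a covariate (adjusted p from 0.158 to 0.72). Abca1 (-0.00098) turned sign with the oocyte marker score as a covariate.

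A minority of lysosomal genes were called higher. Of 31 genes of the lysosome and TFEB list, 9 were called higher and none lower (median 0.55), and 29 had a log2 fold change above 0. Grn, progranulin, had 192, 222 and 190.2 CPM at 8 h and 338, 321 and 354 CPM at 12 h (log2 fold change 0.74 ± 0.14, adjusted p = 0.00274). Mcoln1, a lysosomal cation channel, had 67.5, 81.9 and 66.3 CPM at 8 h and 115, 114 and 121 CPM at 12 h (0.70 ± 0.13, adjusted p = 0.00309), and Npc2, which carries cholesterol out of lysosomes, had 69.2, 75.2 and 64.95 CPM at 8 h and 105, 116 and 107 CPM at 12 h (0.65 ± 0.13, adjusted p = 0.005). The replicates lay close together, and the groups did not overlap. The others included Atp6v0d1 (0.55), Ctsa (0.81), Hexa (0.91) and Psap (1.35), which encode lysosomal enzymes, an activator of them and a proton pump subunit. Without 1 library, 4 to 11 were called, with 4 without CTL 8 h replicate 3 or CTL 12 h replicate 3. With the oocyte marker score as a covariate 4 were higher and 1 lower. Npc2 lost its call with the oocyte marker score as a covariate (adjusted p = 0.115).

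Genes of the insulin-like growth factor system were called higher in 5 of 17 (median 0.36). The binding protein Igfbp7 had 6.5, 12.1 and 8.06 CPM at 8 h and 44.5, 64.9 and 49.2 CPM at 12 h (log2 fold change 2.57 ± 0.40, adjusted p = 0.000922); it overlaps Polr2b on the other strand. Igfbp5 had 3.45, 11.3 and 4.92 CPM at 8 h and 28.1, 65.1 and 36.05 CPM at 12 h (2.71 ± 0.67, adjusted p = 0.017), and Igfbp6 had 37.7, 41.1 and 31.8 CPM at 8 h and 121, 128 and 86.7 CPM at 12 h (1.601 ± 0.31, adjusted p = 0.0043). The receptors Insr (0.70) and Igf1r (0.72) were called too. In the retinoid list 1 of 16 rose and 1 fell. Dhrs3, which reduces retinaldehyde to retinol, had 9.12, 8.46 and 8.61 CPM at 8 h and 63.9, 40.4 and 45.6 CPM at 12 h (2.52 ± 0.32, adjusted p = 0.000257). Aldh1a3, which oxidises retinaldehyde to retinoic acid, had 1404, 989 and 806 CPM at 8 h and 386, 353 and 380.3 CPM at 12 h (-1.51 ± 0.30, adjusted p = 0.00478). The groups did not overlap in either gene. The call of Igfbp5 (adjusted p up to 0.0927) was lost without CTL 8 h replicate 1, CTL 8 h replicate 3 or CTL 12 h replicate 2. The call of Insr (adjusted p up to 0.113) was lost without any 1 of the libraries other than CTL 8 h replicate 2. Igfbp5 (adjusted p = 0.0742) and Insr (adjusted p = 0.0799) lost their calls without a filter on low counts. Igfbp5 and Insr lost their calls with the oocyte marker score as a covariate (adjusted p from 0.357 to 0.478).

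Among signalling lists, WNT genes were called higher in 4 of 31 and lower in 2. Fzd1, a WNT receptor, had 29.4, 48.5 and 33.01 CPM at 8 h and 201, 258 and 191 CPM at 12 h (log2 fold change 2.55 ± 0.36, adjusted p = 0.000545). Lgr5, the receptor of R-spondins, had 4.6, 6.69 and 7.48 CPM at 8 h and 35.1, 30.2 and 29.5 CPM at 12 h (2.34 ± 0.43, adjusted p = 0.00271), and its relative Lgr4 had 47.7, 57.4 and 38.2 CPM at 8 h and 76.3, 102 and 90.1 CPM at 12 h (0.90 ± 0.25, adjusted p = 0.0335). The ligand Wnt11 fell, with 298, 206 and 163 CPM at 8 h and 79.8, 66.97 and 54.8 CPM at 12 h (-1.73 ± 0.28, adjusted p = 0.00122). Tcf7 (0.53) and Tcf7l2 (-0.73) moved in opposite directions. Some Notch targets were lower: Heyl had 559.7, 548 and 426 CPM at 8 h and 202, 165 and 141 CPM at 12 h (-1.596 ± 0.33, adjusted p = 0.00633), and Hes1 had 31.1, 38.02 and 30.1 CPM at 8 h and 12.4, 22.9 and 16.3 CPM at 12 h (-0.94 ± 0.21, adjusted p = 0.0105). With Hey1 (-0.93) they made 3 of 13, and no Notch gene was called higher. Hey2, of the same family, was not called (-0.07, adjusted p = 0.94).

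EGF-like ligands and receptors were called higher in 2 of 17 and lower in 1. Btc, the ligand betacellulin, had 481, 360.0 and 261 CPM at 8 h and 111, 106 and 71.4 CPM at 12 h (log2 fold change -1.93 ± 0.35, adjusted p = 0.00237). Areg had 11.9, 14.8 and 11.7 CPM at 8 h and 8.52, 10.9 and 6.88 CPM at 12 h (-0.54 ± 0.44, adjusted p = 0.504), and Ereg had 103, 89.1 and 62.3 CPM at 8 h and 87.9, 106 and 49.2 CPM at 12 h (-0.06 ± 0.53, adjusted p = 0.966); the groups of Ereg overlapped. Lrig1, which lowers EGF receptor levels, had 64.7, 65.04 and 86.5 CPM at 8 h and 121, 142 and 155 CPM at 12 h (0.95 ± 0.19, adjusted p = 0.00506), and Erbb3 had 0.98. Immediate-early factors were called higher in 3 of 20. Egr1 had 35.1, 74.5 and 31.7 CPM at 8 h and 124, 199.5 and 103 CPM at 12 h (1.595 ± 0.44, adjusted p = 0.0296), Egr2 had 46.2, 109 and 49.3 CPM at 8 h and 237, 172 and 128 CPM at 12 h (1.39 ± 0.31, adjusted p = 0.00908), and Myc had 38.3, 25.04 and 28.2 CPM at 8 h and 34.2, 67.6 and 68.9 CPM at 12 h (0.90 ± 0.23, adjusted p = 0.0234). Ier5 fell, with 111, 74.2 and 70.7 CPM at 8 h and 35.2, 43.1 and 30.1 CPM at 12 h (-1.24 ± 0.20, adjusted p = 0.00141). Of 16 genes of ERK feedback, the phosphatases Dusp5 (-1.39) and Dusp10 (-1.11) were lower, and Dusp1 (0.96) and Dusp4 (0.99) higher. With the replicate number as a block the call of Dusp1 was lost (adjusted p = 0.0510).

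SMAD feedback genes were called lower in 2 of 21. Id4, an inhibitor of DNA binding, had 11.3, 14.05 and 11.9 CPM at 8 h and 2.9, 4 and 2.98 CPM at 12 h (log2 fold change -1.91 ± 0.33, adjusted p = 0.0018), and Bambi, a decoy receptor, had 72.2, 52.8 and 46.6 CPM at 8 h and 28.3, 24.6 and 21.6 CPM at 12 h (-1.20 ± 0.21, adjusted p = 0.0018). None of 17 receptors and SMADs of the TGF-beta family list was called, nor any of 12 hedgehog genes. Log2 fold changes ran from -0.51 to 1.06 and from -0.57 to 1.93. Acvrl1, the receptor of BMP ligands among the largest rises above, is not a member of the TGF-beta family list. Gap junction and arrest genes were called lower in 2 of 17, Nppc and Gja4, the connexin of the oocyte. Gja4 had 43.9, 10.8 and 44.6 CPM at 8 h and 8.33, 5.33 and 7.14 CPM at 12 h (-2.26 ± 0.59, adjusted p = 0.0232), with CTL 8 h replicate 2 near the 12 h level. Lif, a cytokine, was the only call among 18 IL-6 and IL-1 cytokine genes (-1.44). Of 18 NF-kB and chemokine genes Relb (0.80) and Cxcl1 (1.49) were higher, and of 18 interferon genes Gbp2, with 2.62, 0.533 and 0.511 CPM at 8 h and 7.22, 5.68 and 8.85 CPM at 12 h (2.57 ± 0.48, adjusted p = 0.00309). The call of Hes1 (adjusted p up to 0.0609) was lost without CTL 12 h replicate 1 or CTL 12 h replicate 3. The call of Egr1 (adjusted p up to 0.134) was lost without CTL 8 h replicate 1, CTL 8 h replicate 3 or CTL 12 h replicate 2. The calls of Egr2 (adjusted p up to 0.065) and Relb (adjusted p up to 0.102) were lost without CTL 8 h replicate 1, CTL 8 h replicate 3 or CTL 12 h replicate 1. The call of Lgr4 (adjusted p up to 0.144) was lost without any 1 of the libraries other than CTL 8 h replicate 2 and CTL 12 h replicate 1. The call of Myc (adjusted p up to 0.123) was lost without any 1 of the libraries other than CTL 8 h replicate 1 and CTL 12 h replicate 1. The calls of Erbb3 (adjusted p up to 0.148), Dusp4 (adjusted p up to 0.167) and Gja4 (adjusted p up to 0.102) were lost without any 1 of the libraries other than CTL 8 h replicate 2. The call of Dusp1 (adjusted p up to 0.194) was lost without any 1 of the libraries other than CTL 12 h replicate 1. The call of Cxcl1 (adjusted p up to 0.163) was lost without any 1 of the libraries other than CTL 12 h replicate 3. The calls of Hey1 (adjusted p up to 0.19) and Lif (adjusted p up to 0.187) were lost without any 1 of the 6 libraries. Egr1 (adjusted p = 0.121), Dusp1 (adjusted p = 0.0582), Gja4 (adjusted p = 0.0861) and Relb (adjusted p = 0.079) lost their calls without a filter on low counts. Dusp1 (adjusted p = 0.0518) and Dusp4 (adjusted p = 0.055) lost their calls with library size alone as the scale. Myc (adjusted p = 0.0623) lost its call when the CTL 8 h and CTL 12 h groups were fitted alone. Lgr4, Hey1, Egr2, Myc, Dusp1, Dusp5, Dusp10, Relb and Cxcl1 lost their calls with the oocyte marker score as a covariate (adjusted p from 0.0517 to 0.991). Egr1 (-0.0073) and Gja4 (0.016) turned sign with the oocyte marker score as a covariate. Called WNT genes numbered 2 or 3 higher and 1 lower when 1 library was left out, and immediate-early genes 0 to 2 higher.

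Among transcription regulators of ovulation, 2 of 22 rose and 1 fell. Sox9, the factor of the Sertoli cell fate, had 27.6, 9.42 and 11.96 CPM at 8 h and 3.41, 1.52 and 2.32 CPM at 12 h (log2 fold change -2.76 ± 0.58, adjusted p = 0.00665), and the 8 h libraries spread widely. Rora, a retinoid-related orphan receptor, had 12.1, 19.7 and 15.8 CPM at 8 h and 47.5, 63.7 and 42.4 CPM at 12 h (1.69 ± 0.33, adjusted p = 0.00412), and Nrip1, a corepressor, had 183, 195 and 166 CPM at 8 h and 286, 261 and 273 CPM at 12 h (0.59 ± 0.17, adjusted p = 0.0343). Of 17 clock genes 1 was called, Nr1d2 (0.995). Of 18 granulosa genes of the unexpanded cumulus, 1 was called, Fshr, the receptor of follicle-stimulating hormone. Fshr had 7.54, 6.58 and 3.98 CPM at 8 h and 10.1, 11.04 and 13.8 CPM at 12 h (0.95 ± 0.29, adjusted p = 0.0494), and its call was lost with the replicate number as a block (adjusted p = 0.0551). The calls of Nrip1 (adjusted p up to 0.123) and Nr1d2 (adjusted p up to 0.169) were lost without any 1 of the libraries other than CTL 8 h replicate 2. The call of Fshr (adjusted p up to 0.208) was lost without any 1 of the 6 libraries. Nrip1 (adjusted p = 0.0824) and Fshr (adjusted p = 0.122) lost their calls without a filter on low counts. Fshr (adjusted p = 0.0506) lost its call with library size alone as the scale. Nrip1, Nr1d2, Fshr and Sox9 lost their calls with the oocyte marker score as a covariate (adjusted p from 0.141 to 0.659).

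A minority of DNA replication genes were called lower. Of 30 genes of DNA replication, 9 were called lower and none higher (median -0.41), and 28 had a log2 fold change below 0. Cdc6, which loads the replicative helicase, had 34.6, 22.3 and 31.4 CPM at 8 h and 8.49, 10.2 and 9.59 CPM at 12 h (log2 fold change -1.64 ± 0.23, adjusted p = 0.000574). Rrm2, a subunit of ribonucleotide reductase, had 181, 145 and 165 CPM at 8 h and 82.03, 67.2 and 79.01 CPM at 12 h (-1.11 ± 0.18, adjusted p = 0.00141), and Mcm5, a subunit of that helicase, had 116, 107 and 103 CPM at 8 h and 69.1, 59.9 and 68.98 CPM at 12 h (-0.72 ± 0.12, adjusted p = 0.00168). Ccne2 (-1.01), Gins1 (-1.003), Mcm10 (-0.91), Cdt1 (-0.77), Mcm4 (-0.62) and Tyms (-0.53) were the others. Of 29 G2 and spindle genes, 28 were below 0, but 1 was called, under the share of all genes (4.17%). It was Birc5, survivin, with 106, 81.4 and 117 CPM at 8 h and 46.1, 37.6 and 34.95 CPM at 12 h (-1.36 ± 0.26, adjusted p = 0.00324). Cdkn2b, an inhibitor of cyclin-dependent kinases, rose, with 0.952, 1.92 and 1.31 CPM at 8 h and 10.9, 11.4 and 12.3 CPM at 12 h (3.04 ± 0.43, adjusted p = 0.000545). With Sesn1 (1.41) and Btg2 (1.47) it made 3 of 21 in the p53 and GADD45 list.

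Ribosome biogenesis genes were called lower in 7 of 31 (median -0.34), with 28 below 0. Npm1, nucleophosmin, had 241, 190.3 and 239.9 CPM at 8 h and 135, 139 and 151 CPM at 12 h (log2 fold change -0.66 ± 0.15, adjusted p = 0.00908), and Ncl, nucleolin, had 580.0, 379 and 488 CPM at 8 h and 266, 250.2 and 350.0 CPM at 12 h (-0.74 ± 0.18, adjusted p = 0.0174). Nop58 (-0.63), Nolc1 (-0.51), Tsr1 (-0.65), Gnl3 (-0.63) and Nop56 (-0.49) were also lower. Of 78 cytoplasmic ribosomal protein genes, 70 were below 0, with a median of -0.19, and 1, Rpl5, was called (-0.46). In the ATF4 and serine synthesis list, 6 of 19 were called lower and none higher (median -0.54). Atf4, the factor of the amino acid response, had 272, 221 and 199.6 CPM at 8 h and 128, 126 and 107 CPM at 12 h (-0.94 ± 0.16, adjusted p = 0.0016). Its target Chac1 had 8.49, 3.45 and 3.39 CPM at 8 h and 1.29, 1.09 and 1.01 CPM at 12 h (-2.17 ± 0.34, adjusted p = 0.00107), and Psat1, of serine synthesis, had 183, 99.5 and 147 CPM at 8 h and 61.6, 62.9 and 77.6 CPM at 12 h (-1.09 ± 0.27, adjusted p = 0.0163). Asns (-0.999), Mthfd1l (-0.96) and Mthfd2 (-0.79) were the others. The call of Btg2 (adjusted p up to 0.0682) was lost without CTL 8 h replicate 1, CTL 8 h replicate 3 or CTL 12 h replicate 2. The call of Nop58 (adjusted p up to 0.0764) was lost without any 1 of the libraries other than CTL 8 h replicate 2 and CTL 12 h replicate 2. The calls of Ncl (adjusted p up to 0.0987), Nolc1 (adjusted p up to 0.151) and Psat1 (adjusted p up to 0.0926) were lost without any 1 of the libraries other than CTL 8 h replicate 2 and CTL 12 h replicate 3. The call of Mthfd2 (adjusted p up to 0.0955) was lost without any 1 of the libraries other than CTL 8 h replicate 2 and CTL 12 h replicate 1. The call of Rpl5 (adjusted p up to 0.113) was lost without any 1 of the libraries other than CTL 8 h replicate 2. Btg2 (adjusted p = 0.0525), Nolc1 (adjusted p = 0.0784) and Rpl5 (adjusted p = 0.13) lost their calls without a filter on low counts. Ccne2, Birc5, Sesn1, Btg2, Nolc1, Rpl5 and Mthfd2 lost their calls with the oocyte marker score as a covariate (adjusted p from 0.0557 to 0.525). When 1 library was left out, 4 to 7 replication genes, 1 to 7 biogenesis genes and 2 to 7 ATF4 genes were called.

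Glycolysis and hypoxia-responsive genes were called higher in 6 of 34 and lower in 1 (median 0.26). Pfkp, a phosphofructokinase, had 162, 174 and 163 CPM at 8 h and 368, 476 and 449 CPM at 12 h (log2 fold change 1.37 ± 0.19, adjusted p = 0.000429). Ndrg1 had 15.5, 15.3 and 10.3 CPM at 8 h and 31.8, 39.7 and 35.1 CPM at 12 h (1.38 ± 0.24, adjusted p = 0.00179), and Pfkm had 12.5, 14.9 and 9.04 CPM at 8 h and 23.4, 26.7 and 26.3 CPM at 12 h (1.07 ± 0.19, adjusted p = 0.00233). Adm, Aldoc (1.78) and Bnip3 (1.26) were the others, and Car9, a carbonic anhydrase, was lower (-3.12). Of 33 nuclear genes of the respiratory chain 1 was called, Ndufv1 (0.49). None of 10 mitochondrially encoded genes was called, and their log2 fold changes ran from -0.92 to 0.29. Of 29 NRF2 and glutathione genes, Nqo1 (1.51) and Taldo1 (0.66) were higher. The BCL2 list of 18 genes also holds Birc5 and Xiap, which are not members of that family. In it Bmf (1.99) and Bnip3l (0.53) were higher and Birc5 lower. Of 24 ER folding genes Dnajb9 was lower (-0.77). Of 21 amino acid transporters, Slc6a6, the taurine transporter, had 1795, 1904 and 1580.4 CPM at 8 h and 979.6, 890.2 and 1089.8 CPM at 12 h (-0.83 ± 0.19, adjusted p = 0.0122), Slc7a3 had -1.51 and Slc7a1 had 0.56. The call of Slc7a1 (adjusted p up to 0.0783) was lost without CTL 8 h replicate 1, CTL 8 h replicate 3 or CTL 12 h replicate 3. The call of Ndufv1 (adjusted p up to 0.13) was lost without any 1 of the libraries other than CTL 8 h replicate 2 and CTL 12 h replicate 1. The call of Bmf (adjusted p up to 0.125) was lost without any 1 of the libraries other than CTL 8 h replicate 2 and CTL 12 h replicate 3. The call of Dnajb9 (adjusted p up to 0.169) was lost without any 1 of the libraries other than CTL 8 h replicate 3 and CTL 12 h replicate 2. The call of Slc7a3 (adjusted p up to 0.131) was lost without any 1 of the libraries other than CTL 8 h replicate 2 and CTL 12 h replicate 2. The calls of Taldo1 (adjusted p up to 0.161) and Bnip3l (adjusted p up to 0.173) were lost without any 1 of the libraries other than CTL 8 h replicate 2. The call of Nqo1 (adjusted p up to 0.165) was lost without any 1 of the 6 libraries. Ndufv1 (adjusted p = 0.194), Taldo1 (adjusted p = 0.0535), Bnip3l (adjusted p = 0.133) and Slc7a1 (adjusted p = 0.126) lost their calls without a filter on low counts. Nqo1 (adjusted p = 0.0511), Taldo1 (adjusted p = 0.0667) and Bnip3l (adjusted p = 0.0521) lost their calls with library size alone as the scale. Ndufv1, Taldo1, Bmf, Slc7a3 and Pfkm lost their calls with the oocyte marker score as a covariate (adjusted p from 0.0508 to 0.869).

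Markers of other ovarian cells were low in both groups. Of 13 leukocyte markers, 11 were tested and 2 were called, Cd52 and Cd68. The summed level of the markers was 18.7 to 20.0 CPM at 8 h and 31.5 to 37.2 CPM at 12 h, and moved with Cd52 and Cd68. Ptprc, the common leukocyte antigen, was at 0 in all 12 h libraries, and Cd68, of lysosomes in macrophages and other cells, had 4.56, 5.51 and 3.28 CPM at 8 h and 11.2, 8.13 and 10.99 CPM at 12 h (1.18 ± 0.26, adjusted p = 0.0086). Theca markers summed to 36.4 to 51.4 CPM at 8 h and 63.1 to 69.7 CPM at 12 h; most of this was Ptch1, while Insl3 was at 0 in all 6 libraries and none of 4 tested members was called. Mural granulosa markers summed to 76.7 to 91.6 and 65.5 to 86.9 CPM. Stroma markers summed to 13.7 to 25.4 and 19.2 to 28.5 CPM, endothelial markers to 47.3 to 71.9 and 39.0 to 75.8 CPM, and red cell markers to 0.912 to 3.85 and 0.746 to 0.964 CPM. Called markers beyond these were Cyp11a1 and Nppc in the mural list and Mfap4 in the stroma list, which had 0.198, 0 and 0.474 CPM at 8 h and 0 CPM in all 3 libraries at 12 h. The part of these cells in the results was not tested. The call of Cd68 (adjusted p = 0.0596) was lost without CTL 8 h replicate 3. The call of Mfap4 (adjusted p up to 0.185) was lost without any 1 of the libraries other than CTL 8 h replicate 2. Cd68 (adjusted p = 0.07) lost its call without a filter on low counts. Mfap4 lost its call with the oocyte marker score as a covariate (adjusted p = 0.184).

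In the PCI arm the same interval called fewer genes. Between 8 h and 12 h, 251 (1.38%) of the 18192 genes were called higher and 181 (0.995%) lower. Of the 843 genes higher in CTL, 169 were also higher in PCI, which is 20.0% of the CTL calls and 67.3% of the PCI calls. Of the 758 lower in CTL, 102 were lower in PCI (13.5% and 56.4%), and no gene was called in opposite directions. The direction in PCI was that of CTL for 799 of the 843 and 708 of the 758, with median log2 fold changes in PCI of 0.57 and -0.78. The share with the same direction among all tested genes was not computed. These counts therefore only describe the called genes. The PCI libraries at 8 h lay further along the first principal component, at 41.4, 29.7 and 26.5, than CTL 8 h replicates 1 and 3, and at 12 h they lay at 48.8, 51.9 and 60.2.

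A test of the difference between both steps, which share no library, called no gene (edgeR). At an unadjusted p under 0.05 it gave 1133 genes (6.23% of tested genes), and DESeq2 called 28. The median SE of this difference was 0.457 on the log2 scale. Dhrs3 had the smallest p. In PCI it had 33.3, 17.5 and 28.5 CPM at 8 h and 22.1, 22.4 and 28.98 CPM at 12 h (log2 fold change -0.11), a CTL step larger by 2.63 ± 0.43, adjusted p = 0.149. Ror1, a receptor-like tyrosine kinase of the WNT field, had 3.17, 0.96 and 1.5 CPM at 8 h and 1.04, 0.88 and 1.36 CPM at 12 h in CTL and 1.7, 0.866 and 0.465 CPM at 8 h and 4.68, 10.6 and 10.5 CPM at 12 h in PCI, a difference of -3.86 ± 0.70, adjusted p = 0.234. The next were Atp10d (difference 1.75 ± 0.35, adjusted p = 0.245), Sh3bp5 (1.84 ± 0.37, adjusted p = 0.245) and Nrcam (-2.22 ± 0.44, adjusted p = 0.245). Fgfbp3, Gpr153 and Kirrel3 followed, each with an adjusted p of 0.452. None of these differences passed the test. As to the CTL step itself, the call of Kirrel3 (adjusted p up to 0.0944) was lost without CTL 8 h replicate 2, CTL 8 h replicate 3 or CTL 12 h replicate 2. Atp10d and Kirrel3 lost their calls with the oocyte marker score as a covariate (adjusted p from 0.0772 to 0.102).

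Some of the step's leading genes reached other levels in PCI. Cd52 had 0, 0.0289 and 0.418 CPM at 8 h and 0.713, 0.359 and 0.166 CPM at 12 h in PCI, and Acvrl1 had 0.121, 0.26 and 0.558 CPM at 8 h and 0.31, 0.466 and 0.331 CPM at 12 h, with no rise called in either. Npr1 had 12.7, 19.9 and 7.67 CPM at 8 h and 77.4, 86.95 and 122 CPM at 12 h (2.82 ± 0.35, adjusted p = 0.00045), above the CTL libraries at both times, and rose. Adm in PCI had 9.9, 8.05 and 5.02 CPM at 8 h and 36.2, 21.8 and 55.3 CPM at 12 h (2.30 ± 0.44, adjusted p = 0.0082). Has2 had 91.3, 52.7 and 196 CPM at 8 h and 25.6, 19.3 and 23.1 CPM at 12 h (-2.32 ± 0.36, adjusted p = 0.00234), with 8 h values that overlapped those of CTL at 12 h. Ptx3 had 678, 466 and 1166 CPM at 8 h and 81.6, 82.3 and 39.9 CPM at 12 h (-3.50 ± 0.35, adjusted p = 8.89e-05). For these 6 genes the difference between the steps did not pass the test, with adjusted p of 0.694, 0.508, 0.773, 0.694, 0.977 and 0.84.

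**Figure D5:**
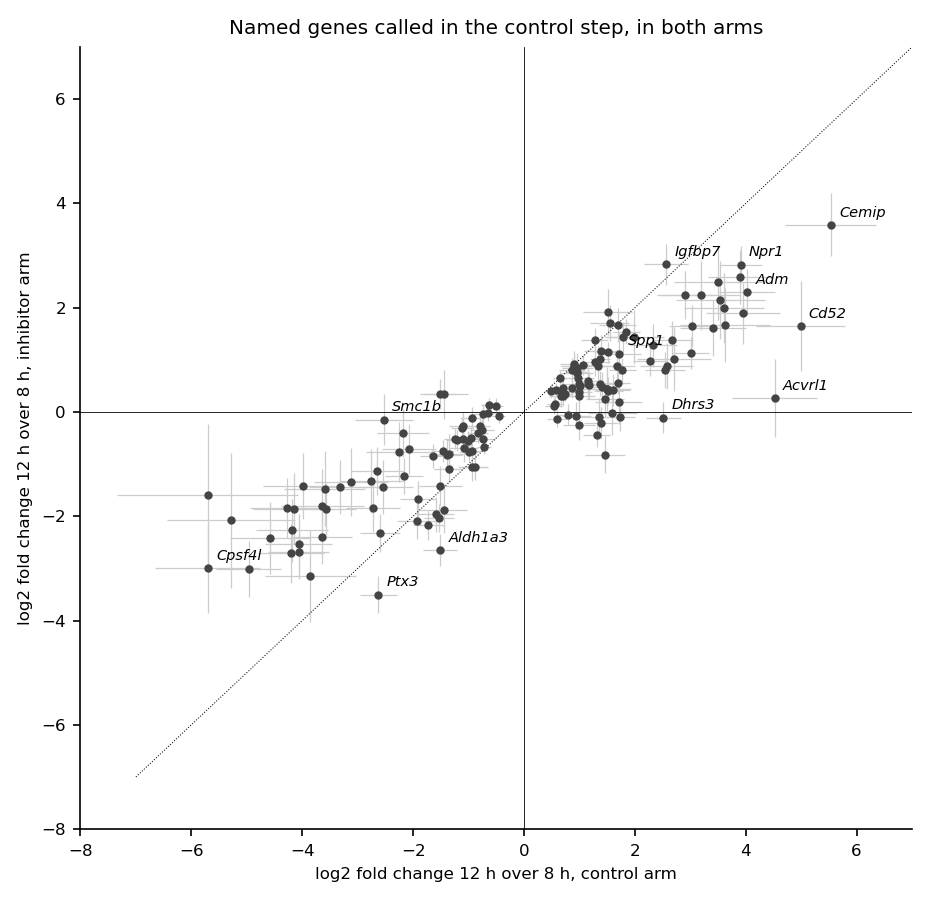
Log2 fold change from 8 h to 12 h in the PCI arm (vertical axis) against that in the CTL arm (horizontal axis) for the 152 named genes called in CTL, with grey bars of 1 SE and a dotted line of equality. Acvrl1 and Dhrs3 lie near 0 in PCI (0.27 and -0.11), and Igfbp7 and Npr1 rise in both arms.

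The step before, from 4 h to 8 h in CTL, shares the CTL 8 h libraries with this one, so values are set side by side. It called 2207 genes higher (12.1%) and 2020 lower (11.1%), more than this step. The change of rate, the step from 8 h to 12 h minus that from 4 h to 8 h, was called in 222 genes (1.22%), with 126 higher and 96 lower. Without 1 of the 6 libraries of the step, 43 to 157 genes were called, fewest without CTL 8 h replicate 1. The smallest p belonged to genes that dipped at 8 h. Anxa1, annexin A1, had 271, 188 and 172 CPM at 4 h, 85.9, 73.7 and 72.7 CPM at 8 h and 224, 227 and 305 CPM at 12 h, a change of rate of 3.14 ± 0.39, adjusted p = 0.00192. Vwa5a had 74.00, 74.2 and 68.3 CPM at 4 h, 26.2, 22.4 and 21.99 CPM at 8 h and 75.6, 77.9 and 101 CPM at 12 h (3.46 ± 0.44, adjusted p = 0.00192). Atp1b1, the beta subunit of the sodium pump, had 57.1, 38.2 and 37.99 CPM at 4 h, 19.7, 19.7 and 20.5 CPM at 8 h and 44.6, 61.3 and 64.8 CPM at 12 h (2.66 ± 0.37, adjusted p = 0.00312), and Pfkp had 354, 309 and 405 CPM at 4 h, 162, 174 and 163 CPM at 8 h and 368, 476 and 449 CPM at 12 h (2.47 ± 0.34, adjusted p = 0.00309). In these 4 genes the mean at 12 h was above that at 4 h. Fhl1, a LIM-domain protein of muscle, had 67.4, 42.5 and 44.9 CPM at 4 h, 2.97, 6.37 and 2.7 CPM at 8 h and 12.7, 15.9 and 10.8 CPM at 12 h (5.39 ± 0.81, adjusted p = 0.00535), and did not return to its 4 h level. Rab27b, a GTPase of secretion, did the opposite, with 9.29, 6.42 and 8.28 CPM at 4 h, 41.6, 26.5 and 31.5 CPM at 8 h and 19.2, 13.3 and 13.8 CPM at 12 h (-3.16 ± 0.42, adjusted p = 0.00275). For the step from 8 h to 12 h itself, the call of Fhl1 (adjusted p up to 0.0935) was lost without CTL 8 h replicate 1, CTL 8 h replicate 3 or CTL 12 h replicate 2. Fhl1 (adjusted p = 0.0775) lost its call without a filter on low counts. Fhl1 lost its call with the oocyte marker score as a covariate (adjusted p = 0.304).

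Other genes were called in 1 interval only, which does not show that their level held in the other. Kansl1 and Slc7a4 were called from 4 h to 8 h (log2 fold change -1.78, adjusted p = 2.81e-06, and 2.43, adjusted p = 2.58e-06) and not from 8 h to 12 h (0.25 ± 0.16, adjusted p = 0.387, and 0.07 ± 0.21, adjusted p = 0.887). Adm, Acta2 and Ftdc2 did the reverse. Adm had -0.40, adjusted p = 0.613, from 4 h to 8 h, and a change of rate of 4.43 ± 0.91, adjusted p = 0.0218. Acta2 had 0.25, adjusted p = 0.597, and a change of rate of 2.77 ± 0.56, adjusted p = 0.0196. Ftdc2 had -0.98, adjusted p = 0.163, and a change of rate of -3.99 ± 0.84, adjusted p = 0.0243.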

How the data were processed

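The authors deposited raw counts per gene for 56980 genes and 21 libraries in 1 table, whose columns were matched to samples by name; no other column of per-sample values was present. The poly(A) library kit keeps the strand, per the labels' protocols. Reads were processed with cutadapt, STAR and HTSeq on mm39, per the submitters' processing notes; neither versions nor the strand option of HTSeq are given in the sources used here. Counts of genes that overlap another gene (Vcl, Pfkp, Pfkm, Ccne2, Sh3bp5, Mmp11, Cyp51, Rpl5, Atp1b1, Slc7a4, Lrig1, Dusp1, Igfbp7, Col4a1, Mfap4) are uncertain to that extent.

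Genes were filtered with filterByExpr (18192 kept) and scaled with TMM in edgeR 4.0.16 (limma 3.58.1, R 4.3.3). The model held 1 coefficient for each group over all 21 libraries (14 residual degrees of freedom). Contrasts were tested two-sided by the robust form of the quasi-likelihood F test in edgeR, and p-values were adjusted over the 18192 genes by the Benjamini-Hochberg method; a gene is called at an adjusted p under 0.05. The SE was obtained by dividing the absolute log2 fold change by the root of its F statistic, and follows ± in the text (n = 3 libraries a group). For 1 to 3 counts in a group a ratio with an exact 95% interval is given, which covers counting error only. A gene was turned on or off at bounds of 0.5 and 1 CPM. The common biological coefficient of variation came to 29.5%. The step had a median SE of 0.324. Replicates differed by more than sampling noise in every pair of the 2 groups, with a chi-square of 22.9 to 44.2 for each degree of freedom. Counts for this step were simulated on 17814 genes with the spread fitted to these data. In them 200 genes were changed, drawn from those above a low bound on counts at 8 h. The test recovered 44% of 2-fold and 85% of 4-fold changes, while 2.27% of 132 calls were false. These shares hold for that setting and do not cover genes with fewer counts at 8 h.

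The text names the 10 largest rises and falls among called protein-coding genes with at least 5 CPM in 1 group, no overlap of libraries and an established symbol; the 6 genes turned on and off with the highest level; up to 4 called members of each list with the smallest p; a panel of expansion, oocyte and convertase genes; and, for the difference from the PCI step and from the step before, the 8 genes of lowest p. Other members of lists are named with their log2 fold change. A few genes that these rules name are not reported here. The step, the lists and these rules were chosen with earlier results of these data known. Replicate numbers paired the CTL 8 h and CTL 12 h libraries: libraries of the same number deviated from their group means together, with correlations of 0.185, 0.234 and 0.170. The fit with the replicate number as a block was an alternative. Others were other scalings, filters, bounds, DESeq2 1.42.0, the groups of the comparison alone, each library left out, and an oocyte marker score as a covariate, added after the data were seen.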

Additional observations from a re-analysis of the deposited data

Results flagged for a closer look

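The step from 8 h to 12 h differed from the step from 4 h to 8 h in CTL for 26 of the named genes (edgeR's quasi-likelihood test of the difference, adjusted p under 0.05), 19 with a higher and 7 with a lower log2 fold change after 8 h. Both steps hold the CTL 8 h libraries, so a level that is low or high at 8 h moves the difference in full on both sides. The cause was not tested. Differences are given as the later minus the earlier log2 fold change. Among genes of the cytoskeleton, membrane and metabolism they were 5.39 for Fhl1, 3.99 for Abca1, 3.46 for Vwa5a, 3.14 for Anxa1, 2.77 for Acta2, 2.66 for Atp1b1, 2.47 for Pfkp, 1.94 for Fdx1 and 1.93 for Ndrg1. Among signals, receptors, proteases and matrix genes they were 4.43 for Adm, 3.63 for Gbp2, 3.15 for F3, 2.83 for Fshr, 2.58 for Plau, 1.97 for Tnfaip6 and 1.45 for Lrig1. The regulators Egr1, Kansl1 and Myc had 3.56, 2.04 and 2.02. Lower after 8 h were Ftdc2 with -3.99, Rab27b with -3.16, Fgfbp3 with -2.83, Slc7a4 with -2.36, Dnajb9 with -2.25, Tut4 with -1.72 and Xylt1 with -1.49. Tnfaip6 fell in both steps, so its difference marks a slower fall.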

How the results depend on the processing

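Of 165 named genes, 152 were called. Of these, 88 kept their call under every alternative but the covariate added later, and 147 kept their sign under every alternative run for single genes (14 for nearly all). The counts of the report were 843 higher and 758 lower, 26 turned on, 41 turned off, 0 that differed from the PCI step and 222 that differed from the step before. Without 1 library they ranged from 308 to 781, from 295 to 774, from 11 to 34, from 23 to 103, from 0 to 0 and from 43 to 157. Fitting the groups of each comparison alone gave 1669 and 1336, with 5 and 992 for the differences, and DESeq2 gave 1197 lower, with 28 and 807. Without a filter 526 were higher and 7 differed from the PCI step, and with library size alone 389 differed from the step before. Bounds of 0.25 and 1 CPM left 9 turned on and 10 off. With the oocyte marker score as a covariate (added) there were 1559 and 1464, with 12 turned on, 12 off and 2634 that differed from the step before; the score follows time, so the covariate takes up part of the step, and few genes were shared. There the log2 fold change turned sign for Egr1 (-0.0073), Sparc (-0.16), Abca1 (-0.00098), Gja4 (0.016), Pabpc1l (0.0295), Ptgs2 (-0.38), Gdf9 (1.31), Bmp15 (0.80), Nrcam (0.058) and Slc7a4 (-0.45). Gdf9 and Bmp15 are themselves markers in the score. Ereg turned from -0.06 to 0.0021 under the replicate block, and without 1 library it ranged from -0.31 to 0.20, above 0 without CTL 8 h replicate 1 (0.11) and without CTL 12 h replicate 3. The replicate block gave 853 higher and 773 lower, with 795 and 693 shared, 26 turned on, 43 off, 0 and 229. It lost the calls of Dusp1, Col4a5 and Fshr and changed no other call of the named genes. The covariate lost 66 calls of named genes that kept their sign. The lack of a filter lost 22, library size alone 6 and the groups of the comparison alone 3 (Akr1c18, Myc and Nppc). Egr1, Sparc, Abca1, Gja4 and Pabpc1l turned sign with the covariate and also lost their calls (adjusted p of at least 0.62). They are not among the 66. With the covariate, members called higher numbered 3 in the interstitial matrix list (5 without it), 3 in glycolysis (6), 2 in the IGF system (5), 2 in matrix proteases (4) and 1 each in basement membrane (4), the p53 list (3) and immediate-early factors (3). The cause of these moves was not tested. Levels under 1 CPM rest on few counts, and 33 genes called lower had no count at 12 h.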
